A study of Mus musculus with 6 samples.

Results

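The genes described here encode the enzymes and carriers that burn fatty acids and ketone bodies in the heart. They are 33 mouse genes chosen by name, and every array probe that carries the name of a member was taken. The choice used none of their measured values, but was made with earlier results of these data known. All 33 were on the array, among 27745 names that its probes carry, with 47 of its 41174 probes other than controls. They fall into the carnitine shuttle and its control (7 genes), the mitochondrial spiral (10 genes), the peroxisomal steps (5 genes), electron transfer (3 genes), the uncoupling proteins with a thioesterase and the pyruvate dehydrogenase kinases (5 genes), and ketone use (3 genes).

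RNA came from whole hearts of mice aged 12 weeks, 3 wild type (WT) and 3 TG-PKR1, with 1 heart on each single-dye Agilent array. TG-PKR1 mice carry a transgene for PKR1, a receptor of the hormone prokineticin-2, driven by the α myosin heavy chain promoter and so meant for cardiomyocytes only. The study kept its mice on a C57BL6/J background, its methods speak in general of littermate controls, and neither a founder line nor a match of littermates is given for these 6 hearts. The hearts are called WT 1 to WT 3 and TG 1 to TG 3. These numbers are names in accession order and pair nothing. A value below is the log2 of a probe's normalized fluorescence, and a difference is the mean of TG-PKR1 hearts minus the mean of WT hearts on that scale. Values of different probes are not comparable with each other. With 3 hearts against 3, the smallest two-sided exact permutation p is 0.1, and so few arrays set the precision of all values given.

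Long-chain fatty acids enter mitochondria as carnitine esters, made by carnitine palmitoyltransferase 1 on the outer membrane, carried across by the Slc25a20 transporter and turned back into acyl-CoA by Cpt2. The spiral then oxidizes, hydrates, oxidizes again and cleaves the chain, releasing acetyl-CoA at each turn and passing electrons to the electron transfer flavoprotein. Fatty acids are the main fuel of the adult heart, ketone bodies are a further one, and pyruvate dehydrogenase kinases hold back the use of glucose by switching off pyruvate dehydrogenase. Brown adipocytes, which can lie around the heart, are also rich in these enzymes. In RNA from whole hearts, fewer cells of a type and less RNA per cell cannot be told apart.

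The signal at the 75th percentile of the spots was 11.4 to 14.1 times the median background on the arrays of WT 1, TG 2 and TG 3, and 2.08 to 3.97 times on those of WT 2, WT 3 and TG 1. The headers mark all 6 as extended-range extractions and give the slope of the low-gain scan as 8.57 to 8.73 on the first 3 arrays, called high-slope here, and as 1 on the other 3, called slope-1. What this slope says of the scanning is not stated. Values within each kind of array are given without a test, and the split also serves as a block in an alternative fit. Among the high-slope arrays WT 1 stands alone against TG 2 and TG 3. Among the slope-1 arrays TG 1 stands alone against WT 2 and WT 3. The kinds are thus not balanced over the groups, and each difference within a kind rests on a single heart of one group. The probe for mouse Prokr1, the gene of PKR1, was well above background on 0 of 6 arrays, so it does not check the genotype labels. As a check of the tissue, all 12 cardiomyocyte marker genes were well above background on 6 of 6 arrays.

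No difference in these genes between TG-PKR1 and WT hearts passed the test across all probes. limma called 0 of 33 members at an adjusted p under 0.05, where 0.095% of the 20000 probes tested were called lower (19 probes) and 0% higher. At an unadjusted p under 0.05, limma called 1 member lower, Pdk4, and 0 higher, beside 1.66% of all probes lower and 0.715% higher. In 0 members did the hearts of the groups part without overlap, beside 2.73% of all probes lower and 2.68% higher. Means were higher in TG-PKR1 hearts for 17 members and lower for 16, beside 11632 higher and 8368 lower of the 20000 probes. The split of the members became 25 to 8 when each array was only scaled by its 75th percentile, with no loess. The median difference over all probes was then -0.02. In the main fit, the median difference of the members was 0.00014, against 0.03 over all probes. The differences ran from -0.70 for Pdk4 to 0.34 for Pdk2. The size of the difference, without its sign, had a median of 0.09, against 0.10 over all probes.

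The intervals say how large a difference could have been missed. For 30 of 33 members, the limma 95% interval at the main probe lay within 1 log2 unit of 0 on both sides. That is within a doubling or a halving. The exceptions were Ehhadh, Ucp3 and Pdk4, whose intervals reached -1.11, -1.14 and -1.32. Of all 47 probes of the members, 40 had an interval within 1 of 0. Further probes of Bdh1, Oxct1, Etfdh and Cpt1b reached 1.63, 1.27, 1.23 and 1.06. Of the 33 members, 31 differed by less than 0.5. All 33 main probes were among the 20000 tested, and 32 were well above background on 6 of 6 arrays. Cpt1c, the form of carnitine palmitoyltransferase 1 best known from brain, was so on 5. Of the 47 probes, 43 were among those tested, and the other 4 were further probes of Cpt1c, Hadha and Ucp2 with low signal.

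**Figure D1:**
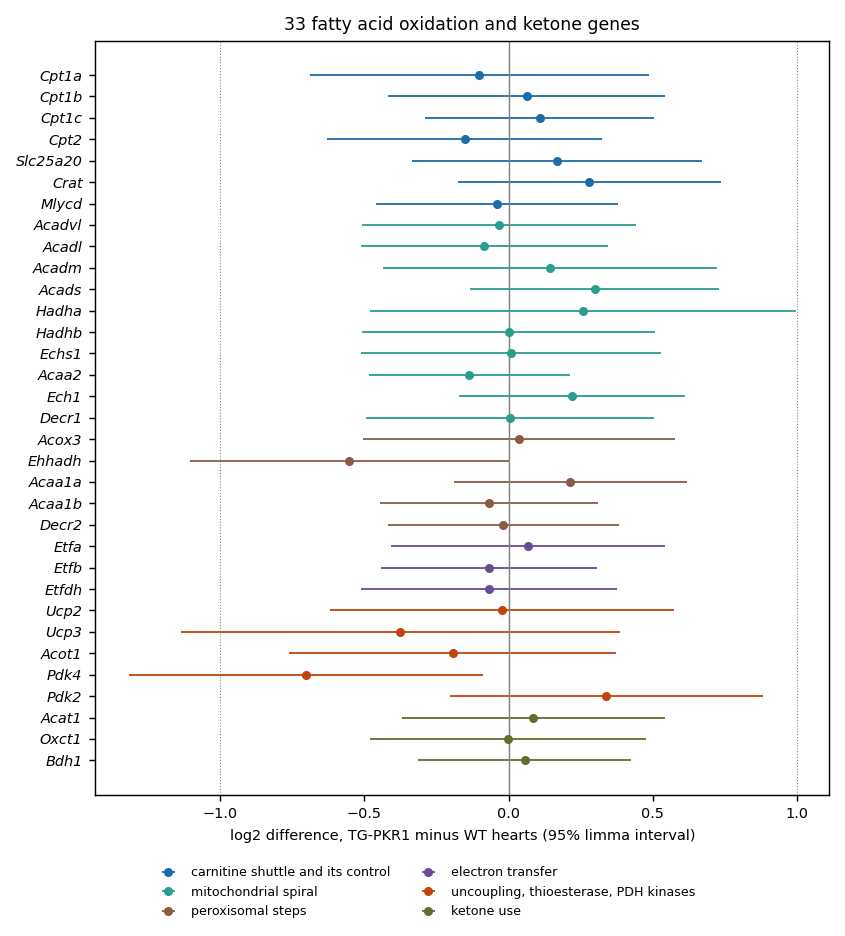
Difference between the group means, TG-PKR1 minus WT, on the log2 scale (x axis) for each of the 33 genes, with 3 hearts per group. Points are limma estimates, bars are 95% intervals, colours mark the subgroups and dotted lines stand at -1 and 1. Every interval but that of Pdk4 includes 0, and the differences run from -0.70 (Pdk4) to 0.34 (Pdk2).

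Among the genes of fuel choice and uncoupling, 4 of 5 means were lower in TG-PKR1 hearts, with a median difference of -0.19, and 0 passed the adjusted threshold. Pdk4, the kinase induced in the heart by fasting and fatty acids (probe at chr6:5433441-5433500, mm8), was measured at 13.82, 13.51 and 14.25 in WT 1 to 3 and at 13.63, 12.73 and 13.11 in TG 1 to 3. TG 2 and TG 3 lay below every WT heart, and TG 1 lay above WT 2. The difference was -0.70 (SE 0.27), a ratio of 0.614, with limma p = 0.029 unadjusted and 1.0 adjusted over the 20000 probes and a two-sided exact permutation p of 0.2. It was -0.90 among the high-slope arrays, -0.25 among the slope-1 arrays and 0.13 on the slide that carried both WT 2 and TG 1, so the sign turned there.

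Ucp3, the uncoupling protein of muscle mitochondria, had values of 9.70, 8.50 and 9.23 in WT hearts and 8.70, 8.33 and 9.28 in TG-PKR1 hearts. The groups overlapped over most of their range, with a difference of -0.37 (SE 0.33, limma adjusted p = 1.0). It ran from -0.70 without WT 2 to -0.09 without WT 1, and was 0.20 on the slide of WT 2 and TG 1. Acot1, which frees long-chain fatty acids from CoA in the cytosol, was at 11.06, 10.50 and 11.40 in WT hearts and at 10.62, 10.65 and 11.10 in TG-PKR1 hearts. Its difference was -0.19 (SE 0.25, limma adjusted p = 1.0), which became 0.013 without WT 3 and 0.12 on the slide of WT 2 and TG 1, and it has near-identical neighbours of its family that a probe may also bind. Pdk2, a kinase found in most tissues (probe at chr11:94842756-94842815, mm8), had the highest difference of the 33. Its values were 9.88, 9.18 and 9.51 in WT hearts and 10.09, 9.46 and 10.04 in TG-PKR1 hearts, where TG 1 and TG 3 lay above every WT heart and TG 2 within them. The difference was 0.34 (SE 0.24, limma adjusted p = 1.0). It was 0.74 among the slope-1 arrays and -0.13 among the high-slope arrays. Ucp2, the uncoupling protein found in many tissues, differed by -0.02.

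**Figure D2:**
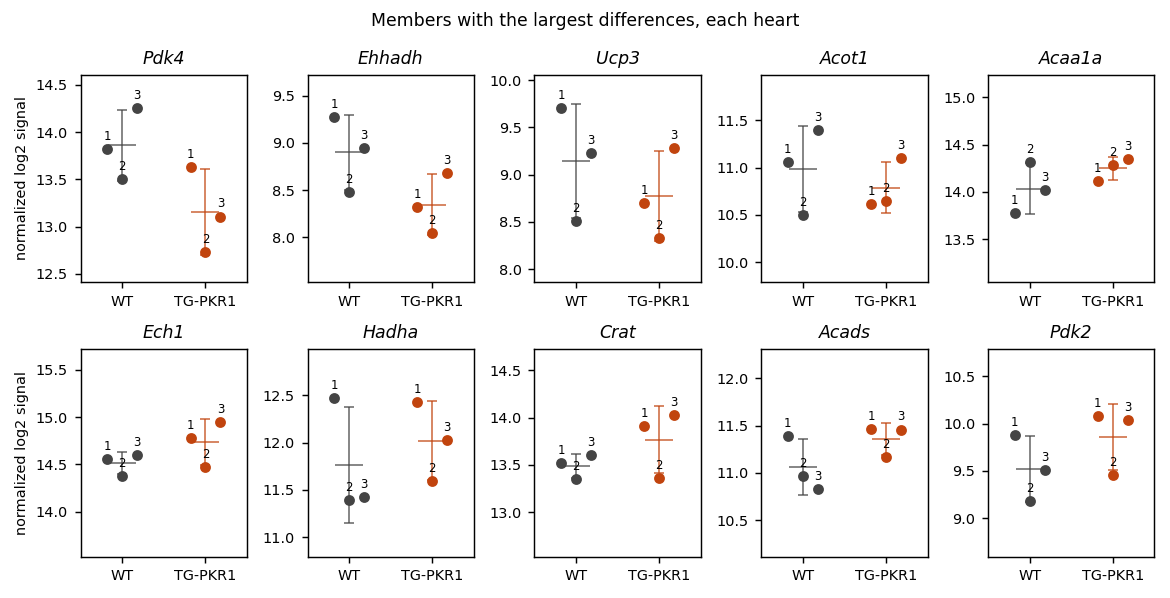
Normalized log2 signal of each heart (y axis, every panel 2.2 log2 units high) for the 10 members with the largest differences, WT in grey and TG-PKR1 in orange. Numbers beside the points are the heart numbers, and the cross bars are the mean with 1 SD over 3 hearts. The groups overlap in all 10 panels, and heart 2 is the lowest of both groups in Pdk4, Ehhadh, Ucp3, Ech1, Hadha, Crat and Pdk2.

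The 7 genes of the carnitine shuttle had a median difference of 0.06, with 4 higher and 3 lower means and a range from -0.15 to 0.28. Crat, which moves acetyl and short acyl groups between CoA and carnitine, stood highest. It was measured at 13.52, 13.35 and 13.60 in WT hearts and at 13.91, 13.36 and 14.02 in TG-PKR1 hearts. TG 1 and TG 3 were above all WT hearts and TG 2 was level with WT 2, for a difference of 0.28 (SE 0.20, limma adjusted p = 1.0). The rate-setting forms of carnitine palmitoyltransferase 1 differed by -0.10 for Cpt1a, the form of liver, and 0.06 for Cpt1b, the form of muscle. Cpt2 differed by -0.15, the carrier Slc25a20 by 0.17, and Mlycd, which removes the inhibitor malonyl-CoA, by -0.04.

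The 10 genes of the spiral had a median difference of 0.01, with 7 higher and 3 lower means. The acyl-CoA dehydrogenases take the first step on chains of different length. Acadvl for very long chains differed by -0.03, Acadl for long chains by -0.08 and Acadm for medium chains by 0.14. Acads, for short chains, was at 11.39, 10.97 and 10.83 in WT hearts and at 11.46, 11.17 and 11.46 in TG-PKR1 hearts. The groups overlapped only in WT 1 and TG 2, since either heart left out parted them, and the difference was 0.30 (SE 0.19, limma adjusted p = 1.0). It was 0.56 among the slope-1 arrays and -0.08 among the high-slope arrays.

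Hadha, the α subunit of the trifunctional protein that carries out the later steps on long chains, varied most within WT hearts among these 10 genes. Its values were 12.47, 11.39 and 11.43 in WT hearts and 12.43, 11.60 and 12.03 in TG-PKR1 hearts, so WT 1 was highest and WT 2 and WT 3 were lowest. The difference was 0.26 (SE 0.32, limma adjusted p = 1.0), and its sign differed between the kinds of array, with 1.03 among the slope-1 arrays and -0.66 among the high-slope arrays. Ech1, an isomerase needed for unsaturated chains, was at 14.56, 14.38 and 14.60 in WT hearts and at 14.78, 14.47 and 14.95 in TG-PKR1 hearts. TG 2 lay among the WT hearts, and the difference was 0.22 (SE 0.17, limma adjusted p = 1.0). The remaining genes, Hadhb, Echs1, Acaa2 and Decr1, differed by 0.00014, 0.01, -0.14 and 0.01.

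Of the 5 peroxisomal genes, 2 means were higher and 3 lower, with a median difference of -0.02. Ehhadh, the bifunctional hydratase and dehydrogenase of peroxisomes and a well-known target of PPARα (probe at chr16:21675824-21675883, mm8), was at 9.27, 8.48 and 8.95 in WT hearts. In TG-PKR1 hearts it was at 8.32, 8.04 and 8.68, so TG 1 and TG 2 lay below every WT heart and TG 3 above WT 2. The difference was -0.55 (SE 0.24), a ratio of 0.682, with limma p = 0.050 unadjusted and 1.0 adjusted, and an exact permutation p of 0.2. It kept its sign within each kind of array, at -0.91 among the high-slope arrays and -0.39 among the slope-1 arrays, and was -0.16 on the shared slide. Acaa1a, a thiolase of the last peroxisomal step, was at 13.77, 14.31 and 14.02 in WT hearts and at 14.12, 14.29 and 14.34 in TG-PKR1 hearts. Its difference was 0.21 (SE 0.18, limma adjusted p = 1.0), and its 3 probes gave 0.11 to 0.21. It was 0.08 without WT 1, -0.048 among the slope-1 arrays and -0.19 on the shared slide. Acaa1b, its near copy, differed by -0.07. Acox3, an oxidase for branched chains, differed by 0.04, and Decr2, a reductase for unsaturated chains, by -0.02.

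No gene of electron transfer or ketone use differed by more than 0.09 at its main probe. Etfa and Etfb, the subunits of the electron transfer flavoprotein, differed by 0.07 and -0.07, and Etfdh, which hands their electrons to ubiquinone, by -0.07. Bdh1 oxidizes 3-hydroxybutyrate and differed by 0.06, Oxct1 activates acetoacetate and differed by -0.0017, and Acat1 splits acetoacetyl-CoA and differed by 0.09. The 95% intervals of these main probes stayed within 0.54 of 0. A second probe of Etfdh, at 0.40, had an interval that reached 1.23. The intervals of further probes of Oxct1 and Bdh1, described below, reached 1.27 and 1.63.

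Members with several probes did not always give the same picture. For Oxct1 the probe nearest the 5′ end, some 52135 bases upstream of the main probe in mm8, read 13.93, 13.79 and 13.52 in WT hearts and 14.88, 13.81 and 14.53 in TG-PKR1 hearts. TG 1 and TG 3 were above every WT heart and TG 2 within them. The difference was 0.67 (limma p = 0.036 unadjusted, 1.0 adjusted; exact permutation p = 0.2), against -0.0017 at the main probe. A probe for a further Bdh1 transcript showed the same hearts standing apart, at 8.51, 8.09 and 8.54 in WT hearts and 9.61, 8.26 and 9.68 in TG-PKR1 hearts. Its difference was 0.80 (limma p = 0.054 unadjusted, 1.0 adjusted; exact permutation p = 0.3), against 0.06 at the main probe. Of the 47 probes of the members, limma called 0 at the adjusted threshold.

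For 7 members with probes well above background at different places along the gene, the 5′ probe was set against the 3′ probe. This was done in each heart and centred on the mean of the 6 hearts. The 3′ probe of Bdh1 is the one for a further transcript, so its pair need not lie along 1 transcript. The median over the genes was 0.46, -0.30 and -0.35 in WT 1 to 3 and 0.23, -0.07 and -0.03 in TG 1 to 3. Etfdh ran from -1.04 in WT 2 and -0.60 in TG 2 to 0.69 in both WT 1 and TG 1, and Bdh1 from -1.0 in TG 3 to 0.75 in TG 2. Such gaps between hearts were as wide as the difference between groups in any member. The part of RNA quality or of transcript forms in these gaps was not tested.

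**Figure D3:**
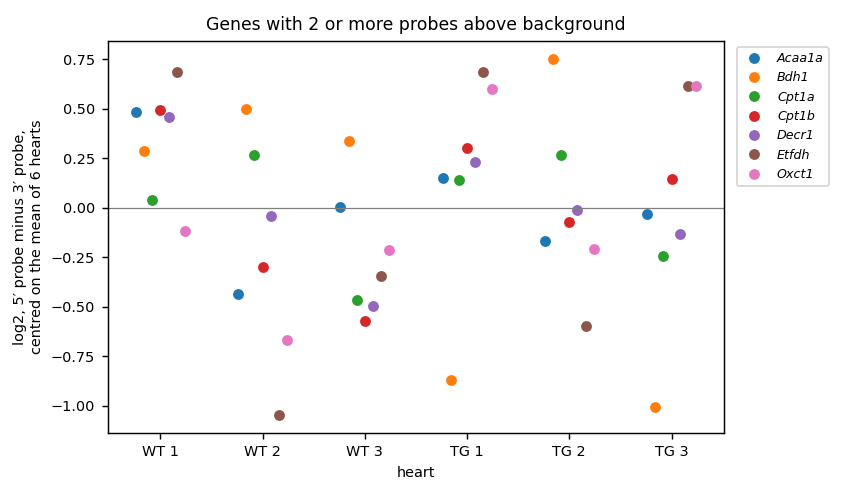
Log2 signal of the 5′ probe minus that of the 3′ probe of the same gene, centred on the mean of the 6 hearts (y axis), for each heart (x axis); points are genes. Etfdh lies lowest in WT 2 (-1.04) and Bdh1 lowest in TG 1 (-0.87) and TG 3 (-1.0). The 3′ probe of Bdh1 is for a further transcript.

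The median SD of the members was 0.33 over WT hearts and 0.23 over TG-PKR1 hearts, against 0.21 over all probes in each group. WT 2 and TG 2, a pair picked out after the values were seen, were each the lowest heart of their group in 18 of 33 members (54.5%), where this was so in 22.0% of all probes. The 18 included Cpt1a, Cpt1b, Slc25a20, Crat, Acadm, Hadha, Hadhb, Echs1, Ehhadh, Ucp3, Pdk4 and Pdk2. They were both highest in 4 members, Cpt2, Mlycd, Etfdh and Acat1 (12.1%, against 20.9% of all probes). With the processed signal they were both lowest in 14 members (42.4%, against 23.8% of all probes) and both highest in 9 (27.3%, against 23.4%). With each array scaled by its 75th percentile, with no loess, there were 9 members with both lowest (27.3%, against 10.3% of all probes). The median deviation of the 33 members from their own means was 0.17, -0.24 and 0.00 in WT 1 to 3 and 0.08, -0.20 and 0.10 in TG 1 to 3. Signal over background was 2.08 in WT 2, the lowest of the slope-1 arrays (2.74 in TG 1 and 3.97 in WT 3). It was 11.4 in TG 2, the lowest of the high-slope arrays (11.6 in WT 1 and 14.1 in TG 3). The endothelial markers had median deviations of -0.38 in WT 2 and -0.22 in TG 2, though not every marker of that list went this way. Those of the cardiomyocyte markers were 0.01 and -0.30, of the fibroblast markers 0.16 and 0.13, and of the erythroid markers 0.05 and -0.92. The part of signal over background or of these marker sets in the pattern was not tested.

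**Figure D4:**
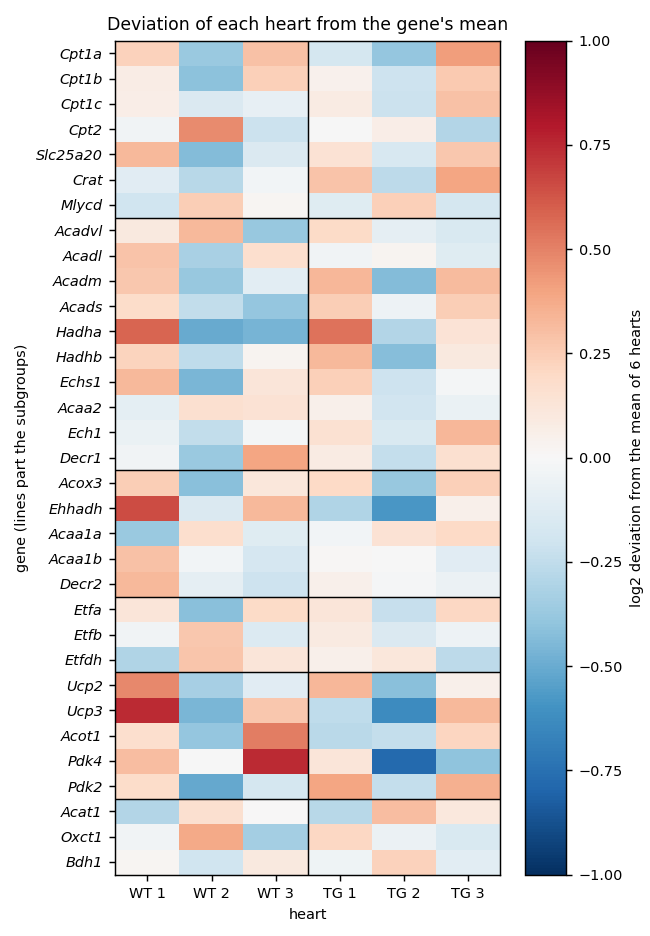
Log2 deviation of each heart from the gene's mean over 6 hearts (colour, from -1 in blue to 1 in red), with genes in rows parted by subgroup and hearts in columns parted by group. Both WT 2 and TG 2 are the lowest of their group in 18 rows, and both are the highest in the rows of Cpt2, Mlycd, Etfdh and Acat1.

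Hadha and Hadhb encode the subunits of 1 enzyme and lie head to head, with start sites 273 bases apart in the RefSeq annotation of GRCm38.p6. Their deviations over the hearts took the same order at the top and bottom of each group. Hadha deviated by 0.58, -0.50 and -0.47 in WT 1 to 3 and by 0.54, -0.29 and 0.14 in TG 1 to 3. Hadhb deviated by 0.23, -0.25 and 0.02 and by 0.32, -0.42 and 0.10. In both genes heart 1 was highest and heart 2 lowest of each group, an order that Acadm, Echs1, Ucp2 and Pdk2, from other loci, showed as well.

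The sequences before the start sites are shown for the 3 genes with the lowest differences and for the stretch that Hadha and Hadhb share. Each is the 250 bases upstream of the RefSeq start in GRCm38.p6, 5′ to 3′ on the strand of the gene. Capitals mark AGGTCA, the half-site bound by many nuclear receptors, and CCAAT, each searched on both strands (so also TGACCT and ATTGG). Pdk4 is at chr6:5496279-5496528 (minus), Ehhadh at chr16:21787835-21788084 (minus), Ucp3 at chr7:100472741-100472990 (plus) and Hadha at chr5:30154981-30155230 (minus), of which 228 bases are also upstream of Hadhb on the other strand.
Pdk4: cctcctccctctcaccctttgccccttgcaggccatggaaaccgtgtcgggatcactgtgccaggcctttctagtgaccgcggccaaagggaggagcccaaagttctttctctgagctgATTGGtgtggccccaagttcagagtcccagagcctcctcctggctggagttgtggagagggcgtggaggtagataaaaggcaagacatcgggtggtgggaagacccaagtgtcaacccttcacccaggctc
Ehhadh: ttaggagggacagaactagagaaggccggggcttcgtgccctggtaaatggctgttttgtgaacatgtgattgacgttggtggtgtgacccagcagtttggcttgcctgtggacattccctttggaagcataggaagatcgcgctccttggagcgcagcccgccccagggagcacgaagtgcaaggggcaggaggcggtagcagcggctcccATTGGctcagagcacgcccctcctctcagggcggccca
Ucp3: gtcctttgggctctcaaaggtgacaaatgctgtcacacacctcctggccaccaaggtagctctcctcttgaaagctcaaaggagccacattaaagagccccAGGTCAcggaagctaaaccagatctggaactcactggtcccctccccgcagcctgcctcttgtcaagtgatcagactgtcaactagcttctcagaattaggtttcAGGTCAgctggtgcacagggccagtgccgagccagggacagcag
Hadha: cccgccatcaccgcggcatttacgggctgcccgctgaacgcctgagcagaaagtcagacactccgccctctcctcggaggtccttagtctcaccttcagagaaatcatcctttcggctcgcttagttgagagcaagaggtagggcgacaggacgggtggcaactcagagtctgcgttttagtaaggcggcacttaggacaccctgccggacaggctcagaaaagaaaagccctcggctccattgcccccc
AGGTCA stood in 2 places before Ucp3 and in none of the other 3 windows, while Pdk4 and Ehhadh held 1 CCAAT each. Of the members, 28 matched a RefSeq promoter. A member counted as holding a motif if any of its windows did. The share over all windows counts each window singly, so these shares are not of the same measure. AGGTCA was in 6 of the 28 (21.4%), in Acadm, Acadvl, Cpt1a, Cpt1c, Echs1 and Ucp3, against 14.02% of 32851 windows of the same length. CCAAT was in 12 (42.9%, against 33.85%), the direct repeat of AGGTCA with 1 base between its copies in 0 (against 0.03%) and TATAAA in 0 (against 12.37%). The median GC content was 58.8% in the members and 52.4% over all windows. These are matches of letters in a short window, and the array data do not bear on binding.

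Further genes of the pathway were read from the same fit. Of 51 further genes of fatty acid and ketone metabolism, 50 were on the array, and limma called 0 at the adjusted threshold and 1 at an unadjusted p under 0.05. That gene was Angptl4, a secreted inhibitor of lipoprotein lipase that PPARs induce, also in fat. It read 11.87, 10.71 and 11.02 in WT hearts and 10.54, 9.61 and 10.19 in TG-PKR1 hearts, so every TG-PKR1 heart lay below every WT heart. The difference was -1.09 (SE 0.33, limma p = 0.0099 unadjusted and 1.0 adjusted, exact permutation p = 0.1), with -1.97 among the high-slope arrays and -0.33 among the slope-1 arrays. Abcd3, a peroxisomal transporter, was the other gene of the 50 without overlap, at a difference of -0.11, beside 2.73% of all probes lower without overlap. Means were higher for 22 of the 50 and lower for 28, with a median difference of -0.04.

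Markers of fat cells mostly had lower means in TG-PKR1 hearts, and few of them passed the adjusted threshold. All 12 white and general adipocyte markers had lower means in TG-PKR1 hearts, 11 of them without overlap of the hearts, with a median difference of -1.23. Of all probes tested, 2.73% were lower without overlap. limma called 0.095% of them lower at the adjusted threshold and 1.66% lower at an unadjusted p under 0.05. limma called 4 of the 12 lower at the adjusted threshold, Adipoq, Plin1, Cidec and Rbp4. Under 9 of 19 alternatives it called 0 of the list, and in those 9 it called 0 of all probes as well. Among these were 75th percentile scaling, scan slope as a block, the table of the authors and leaving out WT 1, WT 3, TG 1 or TG 3. Every marker of the list with a value, 11 or 12 by setting, kept a lower mean under all 19. At an unadjusted p under 0.05 limma also placed Cfd, Retn, Pparg, Fabp4, Cebpa and Pnpla2, all lower. Their median deviations were 0.53 to 0.93 in WT hearts and -0.83 to -0.50 in TG-PKR1 hearts, so the groups did not overlap. Of 10 brown adipocyte markers, 9 had lower means and 1 was called, Ucp1, the uncoupling protein of brown fat, with a difference of -3.23 (limma adjusted p = 0.045). Over the 19 alternatives its difference lay between -3.63 and -2.81 and its adjusted p between 0.016 and 0.77, and it was called under 8. Cidea, Dio2, Elovl3, Slc27a2 and Otop1 were lower at an unadjusted limma p under 0.05 and missed the adjusted threshold in this fit. Cidea, Dio2, Elovl3 and Slc27a2 passed it under some alternatives, up to 5 of the 10 brown markers being called with quantile normalization. Adipoq and Ucp1 were well above background on 6 of 6 arrays, as were 11 of the 12 white and general and 7 of the 10 brown adipocyte markers. The part of fat cells in the values of Pdk4, Ehhadh, Ucp3 or Angptl4 was not tested. All 12 cardiomyocyte markers had means that were higher by 0.02 to 0.23, and limma called 0 of them.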

How the data were processed

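The authors deposited scanner output with 1 intensity per spot, extracted with Agilent Feature Extraction 9.5.1.1 per the file headers and not normalized between arrays, and their own normalized log2 values in tabular form, made by LOWESS and cut to 20000 probes after replicates were averaged. The median signal columns were used here without background subtraction. Spots flagged by the software as outliers, and controls, were dropped. A loess curve (span 0.3, 4 iterations) of each array against the median of all 6 was then subtracted from its log2 values. After averaging the spots of each probe, those with the highest median, 20000 in all, were tested, and groups were compared with limma 3.58.1 in R 4.3.3 (package data.table, version 1.17.8), with Benjamini-Hochberg adjustment over these 20000 at a threshold of 0.05. SAM, the test of the study, was replaced because limma gives each gene an error.

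The members and gene lists were chosen with earlier results of these data known. A member with several probes is described by the probe with the highest mean signal. Full values are given for members with an unadjusted p under 0.05, without overlap of the hearts, or among the 10 largest differences. Genes of other lists are named where they pass the adjusted threshold, have an unadjusted p under 0.05 or are a defining marker, and Abcd3, Prokr1 and single probes of members were named after their values were seen. Of the other lists, limma called 0 genes of the atrial (4), endothelial (5), fibroblast (6), macrophage (5), erythroid (4) and skeletal muscle (7) markers at the adjusted threshold or at an unadjusted p under 0.05. Esam and Pdp2 were not matched by name. Promoters are RefSeq sequences of GRCm38.p6, and probe positions are those of mm8.

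The alternatives tried were Agilent's processed signal with 75th percentile scaling, normexp (offset 50) followed by quantile normalization, the mean signal in place of the median, loess replaced by quantile normalization or by 75th percentile scaling, outlier spots kept, all probes, a filter on detection (3 or more arrays), the authors' table, trend and robust eBayes, probes of a gene averaged, scan slope as a block, and each heart left out. A loess with the median profile on its axis was added after seeing the data. The fit was tested on simulated data. No paired analysis was possible because the titles of the 2 groups share only 1 number, that of the slide with WT 2 and TG 1.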

Additional observations from a re-analysis of the deposited data

How the results depend on the processing

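No member passed the adjusted threshold under any of the 19 alternatives that gave a limma test, including each heart left out (0 to 0). The smallest limma adjusted p of a named member was 0.801. Some of these fits called 0 of all probes, so their count of 0 says nothing of the members in particular. They were 75th percentile scaling in place of loess, all probes, the filter on detection, the authors' table and scan slope as a block. Leaving out WT 1, WT 3, TG 1 or TG 3 also gave 0 of all probes. The other fits called 2 to 33 of all probes. The median difference over the members lay between -0.05 and 0.08 with a heart left out, was 0.17 when loess gave way to 75th percentile scaling (-0.02 over all probes), -0.13 among the high-slope arrays and 0.12 among the slope-1 arrays, and reached 0.20 on the shared slide, without a test. Members without overlap of the hearts numbered 1 (Pdk4) with the processed signal, beside 5.39% of all probes. With a heart left out they numbered 0 to 6: 6 without TG 2 (21.6% of all probes), 5 without WT 1 (21.1%), 4 without WT 2 (12.3%), 1 without TG 1 (13.6%) and 1 without TG 3 (8.82%). Of 220 values of named members, 211 kept their direction and 9 turned: Acot1 to 0.013 without WT 3, within -0.44 to 0.013 over all hearts left out; Acads to -0.081, Hadha to -0.66 and Pdk2 to -0.13 on high-slope arrays; Acaa1a to -0.048 on slope-1 arrays; and Acaa1a to -0.19, Ucp3 to 0.20, Acot1 to 0.12 and Pdk4 to 0.13 on the shared slide. The cause was not tested. With a heart left out, Pdk4 ran from -0.94 to -0.49, Ehhadh from -0.76 to -0.37, Ucp3 from -0.70 to -0.09, Pdk2 from 0.17 to 0.54, Acads from 0.18 to 0.46, Crat from 0.15 to 0.48, Hadha from 0.05 to 0.61, Ech1 from 0.11 to 0.35 and Acaa1a from 0.08 to 0.35. Pdk4 had an unadjusted p under 0.05 in 12 of the 19 alternatives, but not with 75th percentile scaling, all probes, scan slope as a block, or without WT 1, WT 3, TG 2 or TG 3. Ehhadh had one in 6 (processed signal, normexp, quantile, scan slope as a block, without WT 2, without TG 3), Ucp3 without WT 2, Acads and Hadha without WT 1, and Crat and Pdk2 without TG 2. Slide as a random block could not be fitted, since only 1 slide held more than 1 array. Cpt1c was well above background on 5 of 6 arrays.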
